A study of Homo sapiens with 6 samples.

Results

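The hypoxia-inducible factor (HIF) module comprised the genes for the HIF alpha subunits, the enzymes that sense oxygen and mark these subunits for destruction, and targets of HIF outside glycolysis. Members were taken by gene symbol from a list of 37 symbols that held ERO1A under its present and its older name, and all 36 genes were found among the 19846 genes of the table. HepG2 cells, an established human liver tumour line, were grown on 6-well plates (2D) or inside a bioreactor of interwoven hollow fibers (3D), with 3 samples of each culture and passage 7 to 9 in both. Plates held EMEM, renewed every other day, in a humid atmosphere with 5% CO2 at 37 °C. The bioreactor held EMEM mixed with DMEM with 10% serum, Penicillin-Streptomycin and GlutaMAX, recirculated at 23.5 mL/min with a feed of 2 mL/hour, and was gassed with 95% air and 5% CO2 at 200.0 mL/min, also at 37 °C. For the plates the labels name no serum. Medium, feeding and gas supply thus differed together with culture form, and their parts in any difference cannot be told apart. The labels give no oxygen level at the cells. No label states that samples came from separate cultures, so a p-value here reflects only how these samples scatter, which may be technical.

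HIF is a pair of proteins, an oxygen-controlled alpha subunit (HIF1A or EPAS1) and the constant partner ARNT. While oxygen is present, the prolyl hydroxylases EGLN1, EGLN2 and EGLN3 modify the alpha subunit, VHL then recruits a ubiquitin ligase to it, and it is degraded. HIF1AN, an asparagine hydroxylase, blocks the contact of HIF with its coactivators. When oxygen falls, alpha subunits build up and the dimer binds short DNA elements near its targets. This control acts on protein, which was not measured here, so the transcript levels of HIF1A and EPAS1 need not follow HIF activity. The liver is the source of erythropoietin in the fetus, and hepatoma lines are a classical model of the oxygen response.

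Of the 36 members, 35 had enough counts to be tested. NDUFA4L2 passed the low-count filter only together with its 3D samples, and it is included in the counts of higher and doubled members below. In 3D, 18 of 35 were higher and 2 were lower (edgeR's quasi-likelihood test, Benjamini-Hochberg adjusted p under 0.05 over all 15314 genes tested), against 19.0% of all tested genes called higher and 17.6% called lower. At least doubled were 13 of the 35, against 7.2% of all tested genes, and 1 was at least halved, against 4.49%. The median log2 fold change, 3D over 2D, was 0.66 over the members and 0.02 over all tested genes. Values of the 3 samples of 3D all lay above those of 2D for 18 members, where 25.6% of tested genes did so, all lay below for 3 members, against 24.9%, and overlapped for 14; the 21 separated members stand against 50.5% of genes separated in either direction. The count of 18 was the same with totals that left out mitochondrial and the 50 most abundant genes (19.8% of all genes higher) and with a filter of 1 CPM in 3 samples (19.9%). It was 16 with no low-count filter (14.1%) and 14 with the replicate number as a block (17.9%). Without a single sample it was 14 to 17 (12.3% to 18% of all genes). Without 2D replicate 2 and 3D replicate 1, left out together after the data were seen, 15 members were higher and 2 lower, against 14.2% and 13.4% of all genes in that fit. The members were chosen with earlier results of these data known, so these counts describe the module and are not independent support for it.

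**Figure D1:**
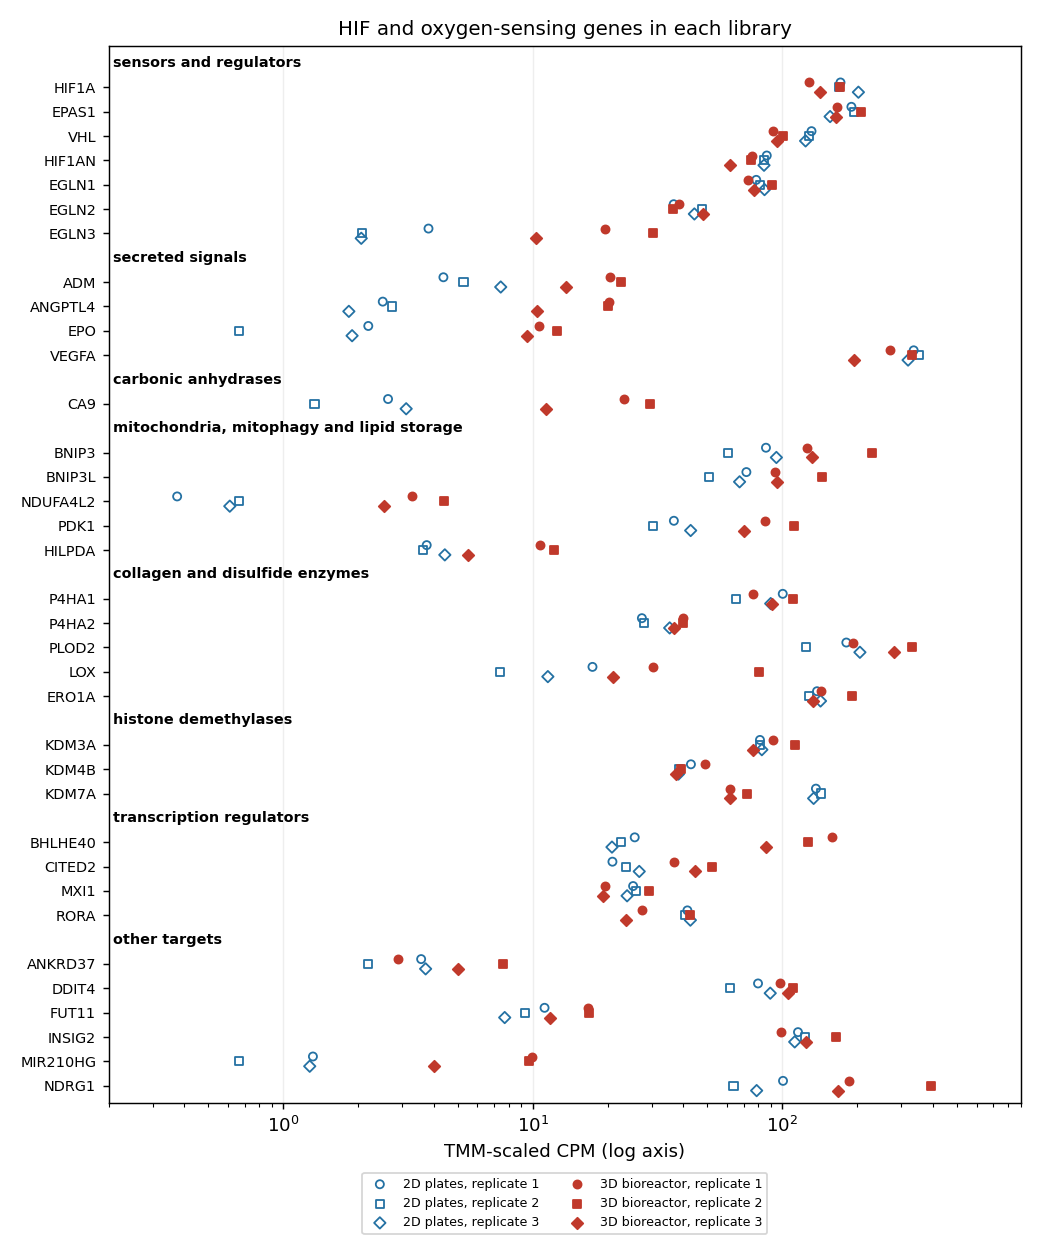
TMM-scaled CPM (log axis) of the 35 tested members in each of the 6 libraries, grouped by role, with 2D open and blue and 3D filled and red. In 18 members all 3D points lie to the right of all 2D points, from EGLN3 and CA9 with wide gaps to DDIT4 with a narrow one, while the points of the HIF alpha subunits overlap.

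Total counts were 16270361 to 17943513 per library in 2D and 9530795 to 15897621 in 3D, and levels are given as CPM, each gene's count relative to the TMM-scaled total of its library, with means ± SD (n = 3 per group). A count of 3 corresponds to between 0.167 and 0.315 CPM before scaling, and such limits cover counting error only. On the principal components of all tested genes, 3D replicate 1 lay apart from the other bioreactor samples on the second axis. Of 10 hepatocyte lineage markers all were tested; APOA1 and TF were higher in 3D, APOB was lower (from 17756 ± 1051 CPM on plates to 6631 ± 2107 CPM in the bioreactor) and 7 were not called, among them ALB at 6237 ± 1322 CPM on plates and 9849 ± 3472 CPM in the bioreactor (edgeR adjusted p = 0.0698). TF also counts among the non-glycolytic HIF targets described below. Of markers of other cells, 2 of 7 fibroblast genes were tested and summed to 7.40 to 15.5 CPM in 2D and 9.28 to 21.2 CPM in 3D. For 3 of 5 endothelial genes the sums were 2.00 to 4.79 and 2.46 to 5.49 CPM, and for 2 of 5 blood and macrophage genes 7.95 to 11.2 and 23.9 to 44.5 CPM. COL1A2, COL3A1, PDGFRA, DCN, KDR, TEK, PTPRC, CD163 and CD3E were not found among the 19846 genes with counts, and THY1 was too low to test. Of those tested, COL1A1 and CD68 were higher in 3D and PDGFRB lower, and their part in the results was not tested. In bulk RNA, fewer cells that transcribe a gene and less RNA per cell cannot be told apart.

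The DNA letters bound by HIF, the core of the hypoxia response element, are ACGTG or GCGTG, and they are shown here for members with different outcomes. RefSeq promoter windows (GRCh38.p14, 250 bases before to 50 after each listed start) were found for 29 of the 36 members, and not for VHL, VEGFA, BNIP3L, HILPDA, NDUFA4L2, NDRG1 and FUT11. Either core, on either strand, stood in the window of 25 of 29 members (86.2%) and of 14318 of 27305 genes in the promoter table (52.4%). ACGTG alone stood in 19 of 29 (65.5%) and in 24.9% of all genes. A gene with several starts was counted once if any of its windows held the letters. The members were listed as HIF genes, and the sets were not matched for expression, base composition or number of starts. Why the shares differ was not tested. Among members called higher in 3D the letters stood in 12 of 13, and among the other members in 13 of 16. EGLN3, which rose, and HIF1AN, P4HA2 and RORA, which were not called, had no match in any window. The stretches below run 5′ to 3′ on the gene's strand, end before the transcription start, and carry the matched letters in capitals, as ACGTG or GCGTG or as their reverse complements CACGT and CACGC, which merge where they overlap (CACGTG).
CA9 (chr9:35673895-35673927, plus strand): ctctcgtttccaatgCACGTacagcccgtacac
ANGPTL4 (chr19:8363906-8363940, plus strand): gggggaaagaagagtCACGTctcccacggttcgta
BHLHE40 (chr3:4979248-4979307, plus strand): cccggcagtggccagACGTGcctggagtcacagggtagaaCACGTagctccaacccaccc
BNIP3 (chr10:131982008-131982081, minus strand): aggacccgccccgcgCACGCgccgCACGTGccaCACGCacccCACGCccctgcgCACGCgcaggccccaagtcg
LOX (chr5:122078338-122078390, minus strand): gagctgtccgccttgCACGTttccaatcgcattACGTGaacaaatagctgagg
MIR210HG (chr11:568608-568642, minus strand): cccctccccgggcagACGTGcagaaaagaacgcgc
ANKRD37 (chr4:185396664-185396717, plus strand): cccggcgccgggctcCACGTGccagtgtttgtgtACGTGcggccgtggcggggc
P4HA1 (chr10:73096933-73096967, minus strand): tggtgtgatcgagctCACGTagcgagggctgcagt
KDM7A (chr7:140177144-140177178, minus strand): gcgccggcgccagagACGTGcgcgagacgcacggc
The first 6 belong to genes called higher in 3D, with a single match close to the start in CA9 and a cluster of 6 in BNIP3. ANKRD37 and P4HA1 carry the same letters and were not called, and KDM7A carries them and was lower. A match is a description of these letters and not evidence of binding.

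Among the sensors and regulators, 1 of 7 transcripts was higher in 3D (EGLN3), 1 was lower (VHL) and 5 did not pass the test, shares near the 19.0% and 17.6% of all genes. HIF1A (hg38 chromosome 14, 61695513 to 61748259), the widely expressed alpha subunit, stood at 171, 168 and 202 CPM in 2D replicates 1 to 3 and 128, 171 and 141 CPM in 3D replicates 1 to 3. EPAS1, the alpha subunit HIF-2 alpha that drives erythropoietin in liver, stood at 189, 194 and 155 CPM in 2D and 165, 207 and 164 CPM in 3D. The cultures overlapped for both alpha subunits, with log2 −0.30, SE 0.14, edgeR adjusted p = 0.111 for HIF1A and log2 −0.01, SE 0.14, edgeR adjusted p = 0.973 for EPAS1. Without 3D replicate 2, the bioreactor sample with the highest HIF1A level, HIF1A was called lower (edgeR adjusted p = 0.0321). With no sample left out and transcript length and GC content corrected, HIF1A was at log2 −0.06 (edgeR adjusted p = 0.633). It was also at −0.06 with the replicate block added to that correction (edgeR adjusted p = 0.703). VHL, the receptor that leads to ubiquitin marking of hydroxylated HIF, had 131, 128 and 124 CPM in 2D and 91.9, 101 and 95.5 CPM in 3D, with no overlap. It fell from 128 ± 3.52 CPM on plates to 96.01 ± 4.35 CPM in the bioreactor (log2 −0.41, SE 0.11, edgeR adjusted p = 0.0131). That call was lost without 2D replicate 1 (edgeR adjusted p = 0.0625).

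The oxygen-sensing prolyl hydroxylases differed from each other. EGLN3 (hg38 chromosome 14, 33924231 to 34462774), itself a well-known HIF target, had 3.82, 2.06 and 2.05 CPM in 2D replicates 1 to 3 and 19.4, 30.4 and 10.3 CPM in 3D replicates 1 to 3. Every bioreactor value was above every plate value, and EGLN3 rose 7.62-fold (log2 2.93, SE 0.42, edgeR adjusted p = 0.000998). EGLN1, the main HIF prolyl hydroxylase in most cells and also a HIF target, had 78.6, 81.2 and 84.8 CPM in 2D and 73.1, 90.8 and 76.8 CPM in 3D, and EGLN2 had 36.7, 47.5 and 44.4 CPM in 2D and 38.7, 36.6 and 48.1 CPM in 3D. Both overlapped between the cultures, at log2 −0.02, SE 0.12, edgeR adjusted p = 0.9097 for EGLN1 and log2 −0.06, SE 0.15, edgeR adjusted p = 0.781 for EGLN2. With transcript length and GC content corrected, EGLN1 was called higher (0.28 on the log2 scale, edgeR adjusted p = 0.0318), but not with the replicate block added (0.0558). HIF1AN had 86.6, 84.7 and 84.4 CPM in 2D and 75.4, 75.1 and 61.9 CPM in 3D. All its 3D values were lower than all 2D values, but it did not pass the test (log2 −0.27, SE 0.12, edgeR adjusted p = 0.102). Its sign turned under the length and GC correction (log2 0.10, edgeR adjusted p = 0.387). Per kilobase of the longest GENCODE transcript, the level of EGLN3 was 0.928 in 2D and 7.04 in 3D (CPM per kb), that of EGLN1 11.5 in 2D and 11.3 in 3D and that of EGLN2 15.2 in 2D and 14.6 in 3D. On this scale the mean level of EGLN3 was below those of the other 2 hydroxylases in both cultures. HIF1A stood at 45.6 in 2D and 37.03 in 3D CPM per kb and EPAS1 at 34.8 in 2D and 34.6 in 3D.

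**Figure D2:**
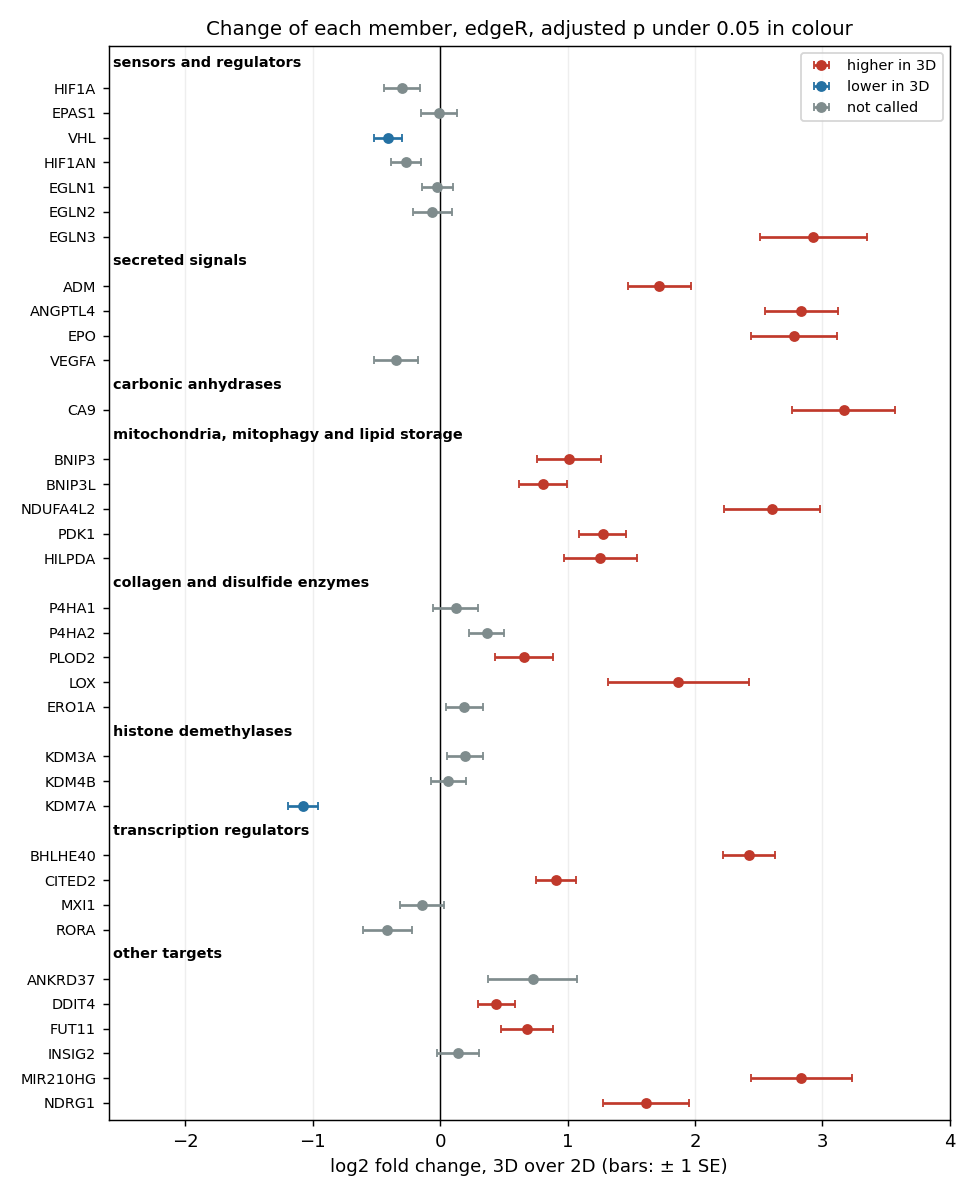
Log2 fold change, 3D over 2D, of each tested member with bars of 1 SE, from edgeR on 3 against 3 samples, by role. Red members were called higher, blue members lower and grey members were not called; changes above 2 in log2 occur in 6 of the 8 roles, while most sensors lie near 0.

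Of 4 genes for secreted signals, 3 were higher and 0 lower, against 19.0% and 17.6% of all tested genes. EPO (hg38 chromosome 7, 100720800 to 100723700), erythropoietin, the hormone that drives red cell formation, stood at 2.19, 0.667 and 1.89 CPM in 2D replicates 1 to 3 and 10.6, 12.5 and 9.49 CPM in 3D replicates 1 to 3. These values rest on 35, 11 and 34 counts in 2D and 107, 194 and 135 in 3D. Every bioreactor sample was several-fold above every plate sample, and EPO rose 6.85-fold (log2 2.78, SE 0.34, edgeR adjusted p = 0.000199). ADM, the vasodilator peptide adrenomedullin, had 4.38, 5.27 and 7.44 CPM in 2D and 20.4, 22.6 and 13.6 CPM in 3D, and rose 3.297-fold (log2 1.72, SE 0.25, edgeR adjusted p = 0.000442). ANGPTL4, a secreted inhibitor of lipoprotein lipase, had 2.504, 2.73 and 1.83 CPM in 2D and 20.1, 20.03 and 10.4 CPM in 3D, and rose 7.14-fold (log2 2.84, SE 0.29, edgeR adjusted p = 7.72e-05). In ADM and ANGPTL4 3D replicate 3 was the lowest of the bioreactor samples and still above all plates. VEGFA, the blood vessel growth factor and a textbook HIF target, was not called and stood at 336, 351 and 319 CPM in 2D and 269, 330.1 and 194 CPM in 3D, with overlapping cultures (log2 −0.34, SE 0.17, edgeR adjusted p = 0.1398). Without 3D replicate 2 VEGFA was called lower (edgeR adjusted p = 0.0273). VEGFA had the highest level per kilobase among these 4 genes, at 94.9 in 2D and 74.7 in 3D CPM per kb, against 1.19 in 2D and 8.18 in 3D for EPO.

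Of the carbonic anhydrases, which handle acid at the cell surface, only CA9 could be tested. CA9 (hg38 chromosome 9, 35673856 to 35681159) had 2.63, 1.33 and 3.11 CPM in 2D replicates 1 to 3 and 23.2, 29.4 and 11.3 CPM in 3D replicates 1 to 3. The lowest bioreactor value was above the highest plate value, and the log2 fold change of 3.17 was the largest among the members. Of the CA9 exon bases, 38.5% overlap ARHGEF39 on the opposite strand, a gene that was itself higher in 3D (from 8.16 ± 2.57 CPM on plates to 17.7 ± 0.566 CPM in the bioreactor). How strand was handled is not given, so reads in that overlap cannot be assigned to either gene. CA12, the other surface enzyme, had 8, 4 and 4 counts in 2D and 3, 17 and 4 counts in 3D and was too low to test.

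All 5 members of the mitochondria, mitophagy and lipid storage group were higher in 3D, against 19.0% of all tested genes. In all 5 the 3D values lay above all 2D values, as in 25.6% of tested genes. PDK1, the kinase that restrains entry of pyruvate into the citric acid cycle, had 36.7, 30.4 and 42.9 CPM in 2D and 85.2, 111 and 69.9 CPM in 3D and rose 2.42-fold (log2 1.28, SE 0.18, edgeR adjusted p = 0.000492). NDUFA4L2, which lowers the activity of respiratory complex I, had 0.376, 0.667 and 0.611 CPM in 2D and 3.27, 4.39 and 2.53 CPM in 3D, and rose 6.09-fold (log2 2.61, SE 0.38, edgeR adjusted p = 0.000468) from only 6, 11 and 11 counts in 2D and 33, 68 and 36 in 3D. It passed the low-count filter only together with its 3D samples, so its place among the 5 depended on its 3D level. With no low-count filter it was also called higher (log2 2.59, edgeR adjusted p = 0.000289). HILPDA, a lipid droplet protein that inhibits lipolysis, had 3.76, 3.64 and 4.44 CPM in 2D and 10.7, 12.2 and 5.48 CPM in 3D and rose 2.39-fold (log2 1.26, SE 0.28, edgeR adjusted p = 0.00566). BNIP3 and BNIP3L are receptors that mark mitochondria for removal by autophagy. BNIP3 had 85.96, 60.6 and 94.6 CPM in 2D and 125, 228 and 132 CPM in 3D (log2 1.01, SE 0.25, edgeR adjusted p = 0.0133), and BNIP3L 71.7, 50.98 and 67.4 CPM in 2D and 93.3, 144 and 95.4 CPM in 3D (log2 0.81, SE 0.19, edgeR adjusted p = 0.00746). In both, 3D replicate 2 stood well above the other bioreactor samples. With the replicate number as a block the adjusted p of BNIP3 was 0.0605.

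Of the enzymes that shape collagen and disulfide bonds, 2 of 5 were higher and 0 lower, against 19.0% and 17.6% of all tested genes. With length and GC content corrected 4 of 5 were higher, against 17.8% of genes. LOX, which cross-links collagen and elastin, had 17.3, 7.396 and 11.5 CPM in 2D and 30.4, 80.4 and 20.95 CPM in 3D. The bioreactor samples lay above all plates but spread widely, with 3D replicate 2 far above the others, and LOX rose 3.66-fold (log2 1.87, SE 0.56, edgeR adjusted p = 0.0378). Without 3D replicate 2 its log2 fold change was 1.08. The LOX call ended when any plate sample was left out (edgeR adjusted p = 0.0605, 0.138 and 0.159 for replicates 1 to 3), and when 3D replicate 1 was (0.0713). The replicate block gave an adjusted p of 0.232, and no low-count filter 0.0847. PLOD2, a lysyl hydroxylase of collagen, had 180.4, 124 and 205 CPM in 2D and 192, 331 and 279 CPM in 3D. It was called (log2 0.66, SE 0.23, edgeR adjusted p = 0.0451) although 3D replicate 1 lay below 2D replicate 3. Leaving out 2D replicate 1 or 2 or 3D replicate 2 or 3 ended the PLOD2 call (edgeR adjusted p = 0.0941, 0.134, 0.144 and 0.111), and so did the replicate block (0.0606). P4HA1 and P4HA2, the catalytic subunits of collagen prolyl 4-hydroxylase, were at 85.2 ± 17.96 CPM on plates and 92.6 ± 17.2 CPM in the bioreactor (log2 0.12, SE 0.18, edgeR adjusted p = 0.616) and 30.2 ± 4.46 CPM on plates and 38.96 ± 1.77 CPM in the bioreactor (log2 0.37, SE 0.14, edgeR adjusted p = 0.0597). P4HA2 had no overlap between cultures, and it was called higher without 2D replicate 3 (edgeR adjusted p = 0.0382) and with upper-quartile scaling (0.0456). ERO1A, the oxidase that feeds disulfide formation in the endoplasmic reticulum, was at 136 ± 7.502 CPM on plates and 155 ± 30.3 CPM in the bioreactor (log2 0.19, SE 0.14, edgeR adjusted p = 0.323). With length and GC content corrected ERO1A was called higher (log2 0.49, edgeR adjusted p = 0.00409), and P4HA2 as well (log2 0.35, edgeR adjusted p = 0.0459), the latter not with the replicate block added (0.0662).

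None of the 3 histone demethylases was higher. KDM7A, which removes methyl marks from histone H3 lysines, had 136, 142 and 133 CPM in 2D replicates 1 to 3 and 61.6, 72.2 and 61.5 CPM in 3D replicates 1 to 3. All bioreactor samples lay far below all plates, and KDM7A fell from 137 ± 4.51 CPM on plates to 65.1 ± 6.13 CPM in the bioreactor (log2 −1.08, SE 0.12, edgeR adjusted p = 0.000111). Its transcript is long (9272 bases for the longest GENCODE form), and with length and GC content corrected the fall was smaller (log2 −0.62, edgeR adjusted p = 0.000733). KDM3A, a demethylase often induced through HIF, was at 81.8 ± 0.853 CPM on plates and 93.5 ± 17.8 CPM in the bioreactor (log2 0.19, SE 0.14, edgeR adjusted p = 0.307, and log2 0.37, adjusted p = 0.0238 with length and GC content corrected). KDM4B was at 39.97 ± 2.63 CPM on plates and 41.9 ± 6.06 CPM in the bioreactor (log2 0.06, SE 0.14, edgeR adjusted p = 0.746). With EGLN1 to EGLN3, HIF1AN, P4HA1, P4HA2 and PLOD2 these demethylases are dioxygenases that use oxygen as a substrate, and of these 10 members 2 were higher, 1 lower and 7 not called, shares near the 19.0% and 17.6% of all genes. With length and GC content corrected 5 of the 10 were higher and 1 lower, against 17.8% and 18.3% of genes.

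Among transcription regulators 2 of 4 were higher and 0 lower, against 19.0% and 17.6% of all tested genes. BHLHE40, a repressor that links oxygen and the circadian clock, had 25.6, 22.6 and 20.8 CPM in 2D replicates 1 to 3 and 158, 127 and 85.9 CPM in 3D replicates 1 to 3. Plates and bioreactor were widely apart, and BHLHE40 had the smallest adjusted p of the module (5.37-fold, log2 2.42, SE 0.21, edgeR adjusted p = 5.21e-05). Unlike most members it was highest in 3D replicate 1. CITED2, which competes with HIF for its coactivators, had 20.8, 23.6 and 26.7 CPM in 2D and 36.9, 52.1 and 44.5 CPM in 3D and rose 1.88-fold (log2 0.91, SE 0.16, edgeR adjusted p = 0.00128). MXI1, an antagonist of MYC, was at 25.01 ± 1.06 CPM on plates and 22.6 ± 5.73 CPM in the bioreactor (log2 −0.14, SE 0.18, edgeR adjusted p = 0.554). RORA, a nuclear receptor of the clock, had 41.6, 40.7 and 42.8 CPM in 2D and 27.5, 42.6 and 23.6 CPM in 3D. Its 3D replicate 2 lay within the range of the plates while the other 2 bioreactor samples lay below them (log2 −0.42, SE 0.19, edgeR adjusted p = 0.115). Without that library RORA was called lower (edgeR adjusted p = 0.00415). On all 6 samples with length and GC content corrected, the sign of RORA turned (log2 0.11, edgeR adjusted p = 0.546).

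Of the 6 other targets 4 were higher and 0 lower, against 19.0% and 17.6% of all tested genes. NDRG1, a stress-induced protein of cell differentiation, had 101, 63.7 and 78.9 CPM in 2D replicates 1 to 3 and 186, 393 and 168 CPM in 3D replicates 1 to 3. Plates and bioreactor did not overlap, and 3D replicate 2 stood far above the other bioreactor samples (3.07-fold, log2 1.62, SE 0.34, edgeR adjusted p = 0.00752, and adjusted p = 0.0534 with the replicate block). MIR210HG is a long noncoding RNA whose interval (hg38 chromosome 11, 565660 to 568457) holds the microRNA miR-210, a HIF-induced microRNA that acts on mitochondrial and iron-sulfur genes. The host transcript had 1.31, 0.667 and 1.28 CPM in 2D and 9.92, 9.63 and 4.01 CPM in 3D and rose 7.14-fold (log2 2.84, SE 0.40, edgeR adjusted p = 0.000424). The microRNA itself was not measured; its mature strand (RefSeq, GRCh38.p14, chr11:568112-568133, minus strand), shown because the host rose, reads as follows with its seed (bases 2 to 8) in capitals.
hsa-miR-210-3p: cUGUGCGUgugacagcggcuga
FUT11, a fucosyltransferase, had 11.1, 9.27 and 7.71 CPM in 2D and 16.7, 16.7 and 11.7 CPM in 3D (log2 0.68, SE 0.20, edgeR adjusted p = 0.0221), and DDIT4, an inhibitor of mTOR complex 1, had 79.9, 61.5 and 89.4 CPM in 2D and 97.9, 111 and 105 CPM in 3D (log2 0.44, SE 0.14, edgeR adjusted p = 0.0321). In both the cultures were separate by a narrow gap. Of the DDIT4 exon bases, 41.2% overlap an antisense gene, DDIT4-AS1. With length and GC content corrected neither was called, at log2 0.44 (edgeR adjusted p = 0.105) for FUT11 and 0.10 (0.604) for DDIT4. The FUT11 call was also lost without 2D replicate 2 or 3 or 3D replicate 1 or 2 (edgeR adjusted p = 0.0718, 0.0935, 0.0544 and 0.0752). That of DDIT4 was lost without 2D replicate 1 or 2 or 3D replicate 2 or 3 (edgeR adjusted p = 0.0841, 0.1698, 0.0823 and 0.0747). INSIG2, which holds back cholesterol synthesis, was at 117 ± 5.89 CPM on plates and 129 ± 32.9 CPM in the bioreactor (log2 0.14, SE 0.17, edgeR adjusted p = 0.528). ANKRD37, an ankyrin repeat protein, had 3.57, 2.18 and 3.72 CPM in 2D and 2.88, 7.62 and 4.99 CPM in 3D (log2 0.73, SE 0.35, edgeR adjusted p = 0.123). ANKRD37 was called without 3D replicate 1 (edgeR adjusted p = 0.0242), and 35.2% of its exon bases overlap UFSP2 on the opposite strand.

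The members also varied together within the bioreactor group. Of 35 tested members 29 had their highest 3D value in replicate 2, 5 in replicate 1 and 1 in replicate 3, while 35.1% of all tested genes had theirs in replicate 2. The trait was not particular to the members. In the other lists described below, 15 of 24 glycolytic and 26 of 40 non-glycolytic targets were highest there. Of the partners 8 of 22 (36.4%) were, which is near the share of all genes. The median log2 difference of members from the 2D mean was 0.36, 0.84 and 0.47 in 3D replicates 1 to 3. Members that were not called took part, among them RORA, INSIG2, MXI1 and VEGFA. On plates, 17 of 35 had their lowest value in replicate 2, against 34.3% of all tested genes. There 20 of 24 glycolytic and 21 of 40 other non-glycolytic targets were lowest, but of the partners only 5 of 22 (22.7%), below the share of all genes. With length and GC content corrected, 21 of 35 members were highest in 3D replicate 2, against 27.1% of genes. The count was 27 of 35 with RLE scaling (34.7% of genes), with upper-quartile scaling (31.6%) and with totals that left out abundant genes (31.5%). Without 3D replicate 2 the median log2 fold change was 0.40, with 15 members higher (17.5% of all genes tested there) and 5 lower (17.1%); the 5 were VHL, KDM7A, HIF1A, VEGFA and RORA. This pattern was noticed after the values were seen, and whether it comes from the cultures or the libraries was not tested.

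**Figure D3:**
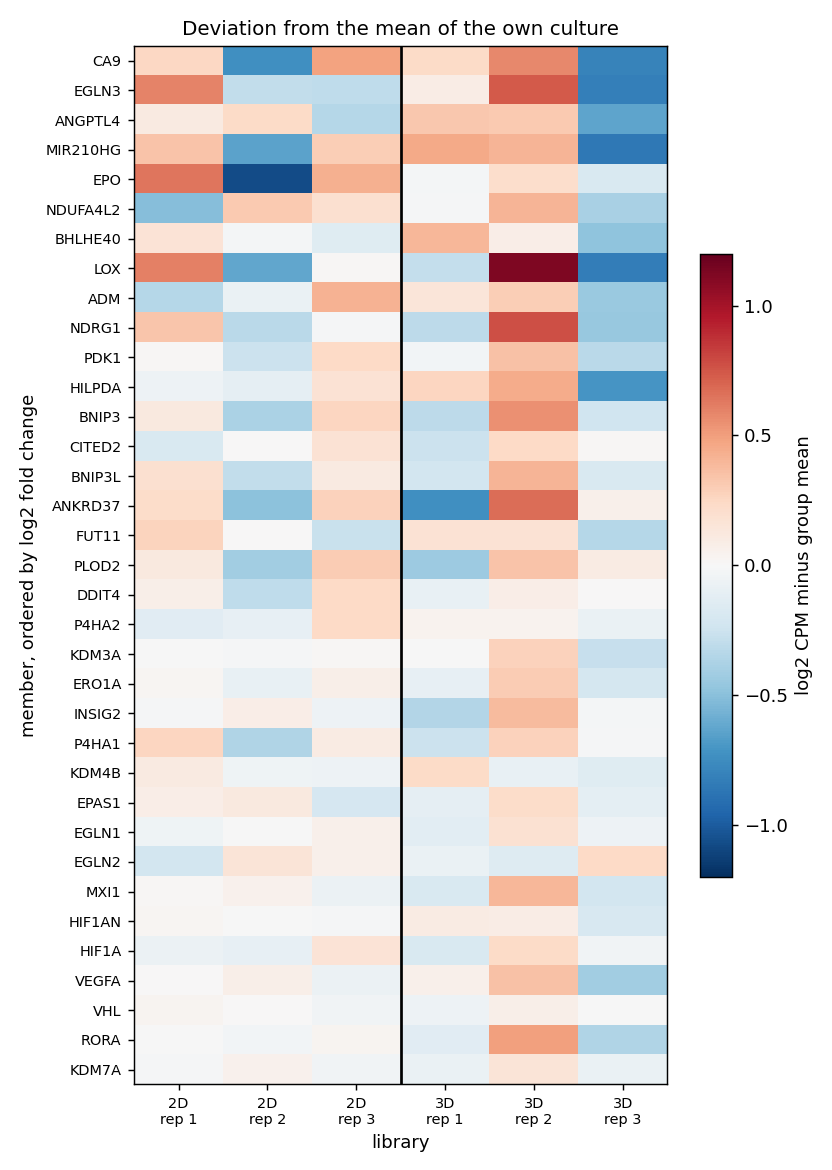
Log2 CPM of each member in each library minus the mean of its own culture group, members ordered by fold change. The column of 3D replicate 2 is red for nearly all members, 29 of which were highest there, and that of 3D replicate 3 is blue for many.

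Each member was also fitted with transcript length and GC content corrected in every library, since reads per gene can depend on both. The median over members fell to 0.44, against −0.02 over all genes so corrected, and 20 members were higher and 2 lower, against 17.8% and 18.3% of genes. EGLN1, ERO1A, KDM3A and P4HA2 gained a call, and DDIT4 and FUT11 lost theirs. PDK1, with a longest transcript of 14193 bases, moved from 1.28 to 1.79, and NDUFA4L2, with 1186 bases, from 2.61 to 2.13. CA9, EGLN3, EPO, ANGPTL4, MIR210HG and BHLHE40 remained at a log2 fold change of 2.33 or more.

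**Figure D4:**
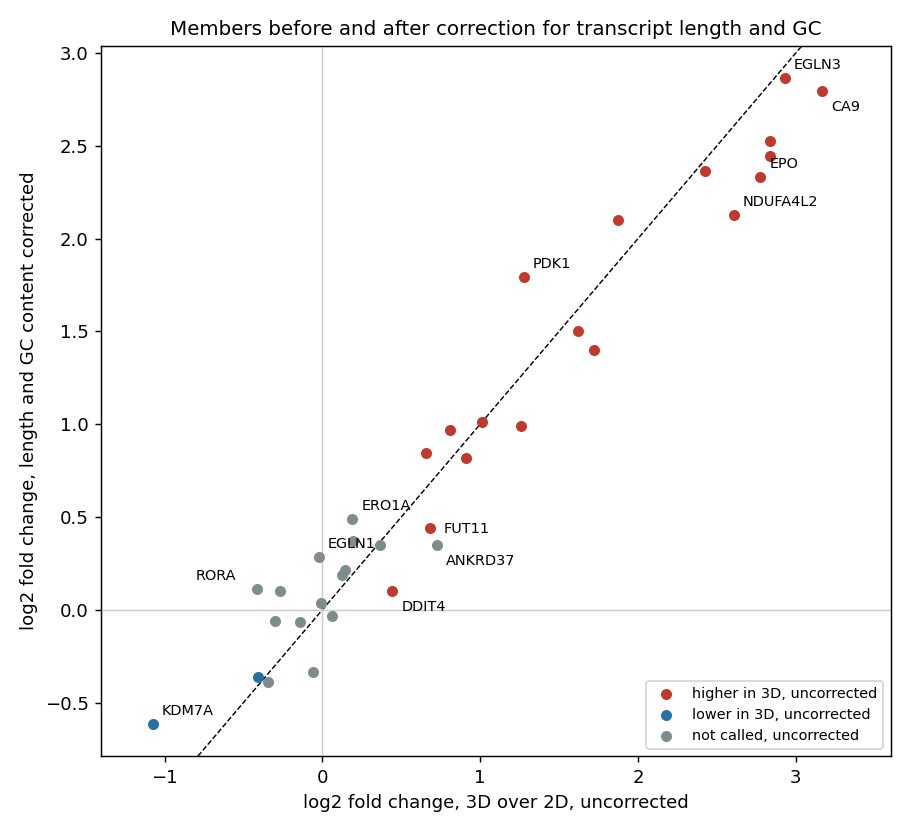
Log2 fold change, 3D over 2D, of each member without (horizontal) and with (vertical) correction for transcript length and GC content, coloured by the uncorrected call; the dashed line marks equal values. Long transcripts such as PDK1, KDM7A and RORA lie above the line and NDUFA4L2, EPO and DDIT4 below it.

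Other genes of the pathway were counted from 3 lists, also chosen with earlier results known. Of 22 genes for HIF partners and the degradation machinery, 7 were higher and 2 lower (median log2 0.09), against 19.0% and 17.6% of all genes; with length and GC content corrected, 3 were higher and 5 lower, near the 17.8% and 18.3% of all genes. ARNT, the constant partner of HIF, was at 27.96 ± 2.51 CPM on plates and 23.4 ± 3.05 CPM in the bioreactor (log2 −0.25, SE 0.15, edgeR adjusted p = 0.198), and its relative ARNT2 at 4.93 ± 0.657 CPM on plates and 3.59 ± 0.964 CPM in the bioreactor (log2 −0.44, SE 0.26, edgeR adjusted p = 0.209). HIF3A, another alpha subunit that can inhibit the others and is induced by them, had 0.501, 0.424 and 0.722 CPM in 2D and 2.88, 4.72 and 1.34 CPM in 3D and rose 5.35-fold (log2 2.42, SE 0.49, edgeR adjusted p = 0.00307). This fold rests on only 8, 7 and 13 counts in 2D and 29, 73 and 19 in 3D. HIF3A passed the low-count filter only together with its 3D samples, so its entry to the test depended on its 3D level. ELOB, a subunit of the VHL ligase complex, rose from 36.7 ± 2.44 CPM on plates to 68.8 ± 9.35 CPM in the bioreactor and EP300, the coactivator that HIF1AN keeps away from HIF, fell from 185 ± 10.5 CPM on plates to 96.99 ± 8.01 CPM in the bioreactor (log2 −0.93, SE 0.12, edgeR adjusted p = 0.000239). Of 24 glycolytic targets 21 were higher and 1 lower (median log2 1.17), with LDHA, lactate dehydrogenase, at 2.48-fold and PGK1, phosphoglycerate kinase, at 2.31-fold. SLC2A1, the glucose transporter GLUT1, was at 619 ± 104 CPM on plates and 644 ± 218 CPM in the bioreactor and was not called (edgeR adjusted p = 0.861). Of 40 tested non-glycolytic targets beyond the members, 17 were higher and 9 lower (median log2 0.18), the lower share being near that of all genes. PDGFB, a platelet-derived growth factor, rose from 1.73 ± 0.748 CPM on plates to 19.7 ± 7.18 CPM in the bioreactor (log2 3.49, SE 0.38, edgeR adjusted p = 0.000212). PPFIA4, a liprin, rose 10.7-fold (log2 3.42, SE 0.64, edgeR adjusted p = 0.00336). Its fold rests on only 8, 2 and 17 counts in 2D and 45, 153 and 39 in 3D, and it too passed the low-count filter only together with its 3D samples. IGFBP1, a liver-secreted binding protein for insulin-like growth factors, had 3262, 2020.1 and 933 CPM in 2D and 93.6, 545 and 159.8 CPM in 3D and fell with a wide spread in both cultures (log2 −2.96, SE 0.79, edgeR adjusted p = 0.0296).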

How the data were processed

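Total RNA of HepG2 cells was measured in 3 samples of 2D and 3 of 3D culture, grouped by their titles. The authors deposited estimated counts per gene, not scaled to a common total. The submitters' processing notes list STAR 2.4.1d and Partek as tools and hg38 as the build. For annotation release, counting settings and strand handling: not given in the sources used here. Counts were rounded to whole numbers. Libraries of 1 group differed by more than counting noise in every pair (chi-square per degree of freedom between 10.3 and 26.7). All genes were fitted together with edgeR 4.0.16 (R 4.3.3; filterByExpr, TMM, robust quasi-likelihood, culture as the only term), with Benjamini-Hochberg adjustment over 15314 genes and a threshold of 0.05. SEs were derived from the F statistic. The depth was 9530795 to 17943513 counts per library. Starts in the table match GENCODE 29 starts and stops lie 1 base beyond its ends, so 1 was subtracted from stops. Length and GC content came from the longest GENCODE 29 basic transcript (88.1% of tested genes), with a loess of span 0.5 per library of log2 CPM (prior count 3). Alternatives were DESeq2 1.42.0, limma-voom (limma 3.58.1), RLE and upper-quartile scaling, totals that leave out mitochondrial genes and the top 50 by abundance, no filter or 1 CPM in 3 samples, a replicate block, length and GC correction, and leaving out samples. Every member is named; of the other lists, the 3 called genes with the largest change at 1 CPM or more could be named, plus HIF3A, ARNT, ARNT2, SLC2A1, PGK1 and LDHA. Members and lists were chosen with earlier results of these data known. Scripts were tested on simulated data.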

Additional observations from a re-analysis of the deposited data

How the results depend on the processing

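With 17 alternatives per member, the 18 members called higher kept their direction in all of them and 12 also kept their call; of the 2 called lower, KDM7A kept its call in all and VHL lost it in 1. The number higher was 18 with DESeq2, limma-voom, RLE scaling, totals without mitochondrial and abundant genes and a filter of 1 CPM in 3 samples, 19 with upper-quartile scaling, 16 with no filter, 20 with length and GC content corrected, and 14 to 17 without a single sample (12.3% to 18% of all genes). The number lower was between 1 and 5 without a single sample, from 1 without 2D replicate 1 to 5 without 3D replicate 2, and the median log2 fold change between 0.40 and 0.70. With the replicate block 14 members were higher and 2 lower (17.9% and 17.0% of all genes), and with the block and the length and GC correction together 17 and 3 (16.8% and 17.0%). The labels do not say whether same-numbered samples were paired. Deviations of same-numbered samples correlated between −0.078 and 0.053 across genes, and those of differently numbered samples between −0.081 and 0.103. With 3 samples per group these values cannot settle pairing, and the block took the members called higher from 18 to 14. Of 595 pairs of a member and an alternative, 29 changed sign, all in members not called in the main fit. EPAS1 was at 0.015 with upper-quartile scaling, 0.012 with totals without abundant genes, 0.038 with length and GC corrected, 0.035 with the block added, and 0.093 without 2D replicate 2 and 3D replicate 1 together, and ranged from −0.13 to 0.047 without a single sample. EGLN1 was at 0.0014 with upper-quartile scaling, 0.28 with length and GC corrected (0.28 also with the block, where its call was lost) and 0.024 without both 2D replicate 2 and 3D replicate 1 (−0.12 to 0.027 without a single sample). EGLN2 was at 0.046 without both libraries (−0.19 to 0.017). HIF1AN was at 0.10 with length and GC corrected, without and with the block, RORA at 0.11 and 0.094, and KDM4B at −0.032 and −0.029, and KDM4B at −0.097 without both libraries (−0.072 to 0.13). Without a single sample P4HA1 ranged from −0.053 to 0.25 and INSIG2 from −0.073 to 0.29, with 0.33 without both libraries. Of the 22 genes of the HIF partner list, 3 were higher and 5 lower with length and GC corrected (17.8% and 18.3% of all genes). With the block added 2 and 5 were (16.8% and 17.0%), all near those shares. Of the other non-glycolytic targets, 4 to 5 were lower without a plate sample, against 11.6% to 13.1% of all genes. With ACGTG alone, chosen after seeing the data, 65.5% of members held the letters, and 82.8% in the 250 bases before the start with either core. The cause of these changes was not tested. Genes such as NDUFA4L2, with 6 to 11 counts per plate library, and CA12 are limited by depth.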
